A study of Mus musculus with 3 samples.

Results

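Chromatin accessibility was examined at 10 genes of the insulin secretory granule and of prohormone processing: Pcsk1, Pcsk2, Scg5, Cpe, Slc30a8, Chga, Chgb, Scg2, Ptprn and Ptprn2. They were chosen by name, and all 10 were found among the 22359 protein-coding genes of the mouse annotation. Every peak overlapping a gene body or the 20 kb on each side was taken, which gave 141 of 60898 WT peaks, 130 of 150354 peaks at 1 week and 196 of 151725 peaks at 5 weeks. ATAC-seq, in which a transposase inserts adapters into open chromatin, had been performed on cells from isolated Langerhans islets of mice of the strain labelled C5LBl6, dissociated with Accutase. The 3 libraries were 1 of the genotype wild type (WT), 1 of Taf4 KO at 1 week and 1 of Taf4 KO at 5 weeks. The titles call the samples pancreas and the tissue labels call them islets.

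According to the study's methods, Taf4, which is part of TFIID, a complex that assembles at promoters to start transcription, was deleted by a tamoxifen-inducible Cre (Cre-ERT2) driven by the Ins1 promoter, so that islet cells other than beta cells kept the gene. Its control animals carried the Cre and were given tamoxifen as well, whereas the labels name only the wild type genotype. In these bulk islet libraries a smaller number of cells of a type and a lower accessibility per cell cannot be told apart. Each group was 1 library, so the variation among animals is unknown and the differences below are differences between 3 peak lists.

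Insulin is made as a larger precursor that is folded, packed into granules and cut there. The convertases PC1/3 and PC2, the products of Pcsk1 and Pcsk2, cut the precursor at pairs of basic residues, and carboxypeptidase E trims the residues left at the cut ends. The zinc transporter ZnT8, the product of Slc30a8, loads the granule with the zinc around which insulin crystallises, and the granins, acidic proteins such as chromogranins A and B and secretogranin II, take part in forming the granule. The granule membrane also carries the phosphatase-like proteins IA-2 and phogrin, the products of Ptprn and Ptprn2.

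Several promoters of these genes hold a cAMP response element (CRE), the palindrome TGACGTCA bound by CREB, or its TGACGT core. The CRE and its core were searched on both strands in the 250 bases before each start that RefSeq (GRCm38.p6) gives, after matching those sequences letter by letter to mm9. Of the 10 genes 8 had a RefSeq promoter that matched, with 9 starts. Cpe and Slc30a8 had none. The full CRE was found at 3 of the 8 genes, against 1.55% of the 32851 promoters of the RefSeq table, and the core, which every full CRE contains, at 5 of 8, against 6.47%. These starts were added after the data were seen. Before the GENCODE starts used for the promoter calls, the full CRE was found at 1 of the 10 genes, against 1.94% of all promoters, and the core at 4 of 10, Cpe among them, against 7.23%. The 30 bases around each of these matches are shown because they are the sequence the promoters of 5 members share and because their matched letters lie under the promoter peak in each of the 3 lists, as described below. Capitals mark the CRE or its core. Coordinates are on mm9, the strand is that of the gene, and base -1 is the last base before the RefSeq start.

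Pcsk1 at base -78 (chr13:75227215-75227244, plus strand): tccaggtagatcTGACGTCAagagatggct
Pcsk1 at base -50 (chr13:75227243-75227272, plus strand): ctttcgtcgattTGACGTgtaaacactcat
Scg2 at base -68 (chr1:79436652-79436681, minus strand): aggctgagccggTGACGTCAgcgtggaatg
Chgb at base -72 (chr2:132607294-132607323, plus strand): ggggctgctccgTGACGTCAgggctgagcg
Chga at base -44 (chr12:103793095-103793124, plus strand): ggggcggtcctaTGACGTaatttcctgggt
Scg5 at base -175 (chr2:113669406-113669435, minus strand): aaaggaggtaaaTGACGTtcataggggtcg

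In 4 of the 5 genes the element lay within 78 bases of the start, and in Scg5 it lay farther upstream, at base -175. The site of Scg2 overlaps 14 bases of a 5′ untranslated region in the GENCODE annotation, whose start lies upstream of the RefSeq one, and that of Chgb lies wholly in one. A letter match is not evidence that a factor binds.

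A promoter peak was called for 10 of the 10 genes in WT, for 9 at 1 week and for 10 at 5 weeks. The promoter ran from 1000 bp before to 100 bp after the start of each protein-coding transcript. Over all protein-coding genes such a peak was found for 59.0% in WT, for 55.9% at 1 week and for 65.6% at 5 weeks. The single WT promoter call not found at 1 week was that of Chgb, 1 of 10, where over all genes 14.5% of WT promoter calls were missing at 1 week. At 5 weeks 0 of 10 were missing, against 1.89% of all genes.

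**Figure D1:**
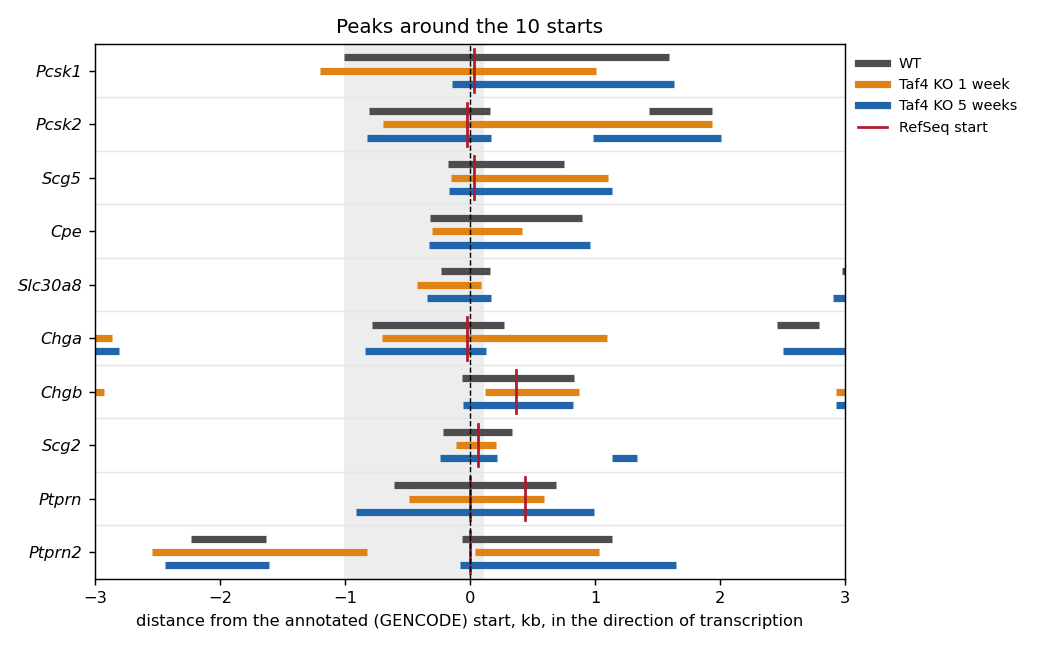
Peaks called within 3 kb of the annotated start of each gene, with the distance from the GENCODE start in kb along the direction of transcription on the x axis and 1 bar per peak for WT (grey), Taf4 KO 1 week (orange) and Taf4 KO 5 weeks (blue). Red ticks are RefSeq starts and shading is the promoter window: the 1 week Chgb peak began 121 bp past the GENCODE start and covered the RefSeq start, and the 1 week Ptprn2 peaks left the start itself uncovered.

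The Chgb call was decided by which start was used. Chgb, which encodes chromogranin B (chr2:132607014-132620815, plus strand), had a WT promoter peak from 132606947 to 132607844 with a -log10 q (q being the caller's adjusted p for a peak against its local background) of 11.5 and a 5 week peak from 132606956 to 132607835 with a -log10 q of 19.7. At 1 week a peak of nearly the same position, from 132607135 to 132607885, had a -log10 q of 9.77. It began 121 bp downstream of the GENCODE start, past the end of the window, but it covered the RefSeq start at 132607378, which lies 364 bp downstream of the GENCODE one, and the CRE printed above. With RefSeq starts, a choice made after the data were seen, all 9 starts of the 8 matched genes had a promoter peak in each of the 3 lists. The start itself was covered for 9 of these 9 in WT, for 8 at 1 week, where the exception was Ptprn2, and for 9 at 5 weeks. Such shares over all RefSeq starts were not computed, so these counts have no background to be read against.

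The strength of a peak is given as the -log10 q of the authors' caller and as its percentile within its own list, since q grows with depth. The floor of the local background of a list, its 1st percentile over the peaks, was recovered from folds and p-values. It was 3.66 reads in WT and rose to 6.45 at 1 week and 9.38 at 5 weeks, that is 1.76-fold and 2.57-fold. Because the Taf4 KO lists hold many weak peaks, a peak of the same standing has a higher percentile in them: the median promoter peak over all genes was at the 84.3 percentile in WT, 87.4 at 1 week and 89.3 at 5 weeks. For the 10 genes this median was 80.2 in WT, 90.4 at 1 week over 9 genes, and 89.6 at 5 weeks. The 1 week median takes Ptprn2 at 94.1, by a peak upstream of its start. It would be lower with the 1 week peak next to that start, at 7.47. In median, the promoters of the 10 genes therefore ranked slightly below the typical promoter in WT.

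Gene by gene, the median shift against WT was 2.33 percentage points at 1 week and 6.85 at 5 weeks, close to the 2.01 and 5.13 of all genes with a promoter peak in both lists. A shift of 20 points or more upward at 1 week was met by 1 of 9 genes, Ptprn2, against 13.6% of all genes. Downward it was met by 0 of 9, against 7.07%. At 5 weeks 0 of 10 moved up that far, against 16.4%, and 0 of 10 moved down, against 0.216%. Counted by direction alone, 5 of 9 shifted up at 1 week and 8 of 10 at 5 weeks, where 59.9% and 80.0% of all genes did. These 1 week values take Ptprn2 by a peak upstream of its start. The 1 week peak next to that start stood at 7.47, against 61.0 in WT. By that peak Ptprn2 would count as a fall of more than 20 points. The upward count and the median shift at 1 week would then be lower. How the set stood against all genes depended on the lists. From a -log10 q of 5 the median shift at 1 week was 6.82 for the members and -10.7 for all genes. These medians cover only genes called in both lists, 6 of the members. Pcsk2, Slc30a8 and Chgb, called in WT at this cut, had no 1 week call and dropped out. Ptprn2 entered by its upstream peak, from 1.34 in WT to 62.7. The 6.82 therefore does not describe the whole set. With lists cut to equal length the median at 5 weeks was -12.2 for the members and -4.81 for all genes.

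**Figure D2:**
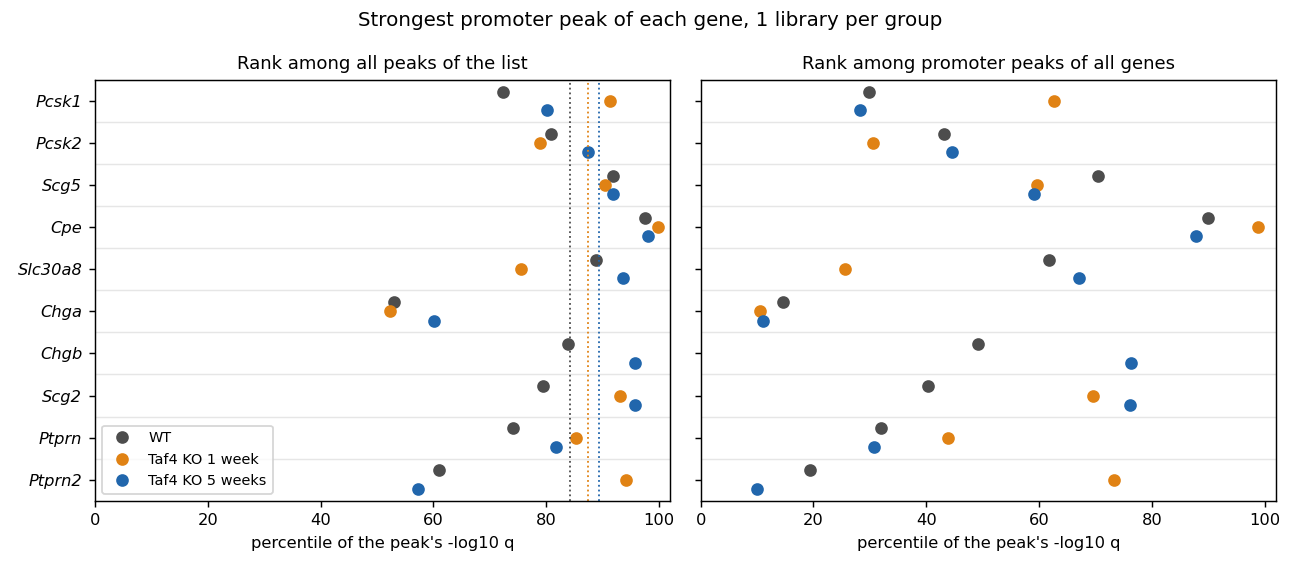
Percentile of the strongest promoter peak of each gene, by -log10 q, among all peaks of its list (left) and among the promoter peaks of all genes in that list (right), with 1 point per library and dotted lines at the median promoter peak of all genes (84.3, 87.4 and 89.3). Cpe lay at the top and Chga near the bottom in each library, and Slc30a8 at 1 week stood at 25.6 among promoter peaks, below its WT value of 61.8 and its 5 week value of 67.1.

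The convertase genes had promoters of different kinds. Pcsk1 (chr13:75227274-75269946, plus strand) had a broad and modest promoter peak with a -log10 q of 7.43 (WT), 7.74 (1 week) and 7.64 (5 weeks). Its width was 2604 bp, 2203 bp and 1778 bp. These values lay close together in the 3 libraries, and its percentile moved from 72.4 in WT to 91.3 at 1 week and 80.2 at 5 weeks. Among promoter peaks alone it stood at 29.8, 62.7 and 28.3. No other peak was called within 20 kb of the gene in any of the 3 lists, so that Pcsk1 was the only member whose locus held nothing but its promoter. Its upstream sequence is shown because that single peak holds a full CRE followed by a core, which runs into a match to the Foxa letters TGTTTAC on the other strand, found at 1 of the 8 genes and at 3.17% of the RefSeq table. All 3 matches are in capitals, over the 219 bases that end at the GENCODE start (chr13:75227055-75227273, plus strand).

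Pcsk1 promoter: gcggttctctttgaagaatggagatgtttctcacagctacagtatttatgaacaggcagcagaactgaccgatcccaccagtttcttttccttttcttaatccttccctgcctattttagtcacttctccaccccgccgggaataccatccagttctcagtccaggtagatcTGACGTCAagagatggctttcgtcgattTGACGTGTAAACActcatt

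Pcsk2 (chr2:143371892-143642021, plus strand) has a CpG-rich promoter, with 35 CpG dinucleotides in the 250 bases before its RefSeq start against 8 in Pcsk1. They are shown (chr2:143371619-143371868, plus strand) for the contrast with Pcsk1, with the GC box GGGCGG, the E-box CAGCTG and the CCAAT box CCAAT, each searched on both strands, in capitals, and with no CRE core. GC boxes were found at 6 of the 8 matched genes and at 32.7% of all RefSeq promoters, CAGCTG at 2 of 8 and 13.0%, and CCAAT at 1 of 8 and 33.8%.

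Pcsk2 promoter: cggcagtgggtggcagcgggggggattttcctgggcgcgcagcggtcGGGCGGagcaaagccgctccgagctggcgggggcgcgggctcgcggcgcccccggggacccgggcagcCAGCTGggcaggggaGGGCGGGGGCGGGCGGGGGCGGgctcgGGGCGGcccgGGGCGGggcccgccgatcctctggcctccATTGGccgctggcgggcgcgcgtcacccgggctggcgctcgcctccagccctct

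The Pcsk2 promoter peak reached a -log10 q of 10.2 in WT, of 3.94 at 1 week and of 11.3 at 5 weeks, with a fold over the local background of 3.26, 2.65 and 3.03. Its percentile was 80.9, 79.0 and 87.4. The q was lowest at 1 week, but the 1 week peak was 2639 bp wide and also spanned a neighbouring peak that the other lists held apart, over which its values were averaged. Against the whole list its 1 week rank was close to that of WT, but among promoter peaks of all genes it stood at 43.1 in WT and 30.6 at 1 week. With lists cut to equal number its 1 week percentile was 48.2, against 80.9 in WT, and from a -log10 q of 5 it was not called at 1 week.

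The Pcsk2 gene, 270.1 kb long, carried the most intragenic peaks per member after Ptprn2. Its locus held 30 peaks in the WT list, 20 at 1 week and 31 at 5 weeks. When overlapping peaks of the 3 lists were joined into regions, 43 regions resulted. Of these 12 were called in all 3 lists and 9 in WT alone, against 24.1% and 7.28% over all loci. The WT-only regions were weak, with percentiles from 3.25 to 50.1. Of its 30 WT peaks 13 were overlapped by a peak at 1 week and 20 at 5 weeks, against 61.8% and 80.5% over all loci. The strongest intragenic region was found in each list. It was centred 95.8 kb into the gene (chr2:143467013-143468292) and had a -log10 q of 13.9, 16.3 and 22.7 in the WT, 1 week and 5 week lists, at percentiles of 88.5, 98.5 and 97.3. A second one, 121 kb into the gene (chr2:143492038-143493177), had a -log10 q of 7.90, 13.3 and 22.1. Higher percentiles outside promoters were the rule in the longer Taf4 KO lists: over all loci 87.1% of such regions called in WT and at 1 week ranked higher at 1 week, and 92.4% of those called in WT and at 5 weeks ranked higher at 5 weeks, with median shifts of 22.1 and 23.8 points.

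Scg5 encodes 7B2, the chaperone that PC2 needs to mature (chr2:113616519-113669278, minus strand). Its promoter peak reached a -log10 q of 16.5 in WT, of 7.28 at 1 week and of 14.7 at 5 weeks, at percentiles of 91.9, 90.4 and 91.8. It was second to Cpe in WT and near the middle of the set in both Taf4 KO lists. The strongest peak of the locus outside the promoter was 10.5 kb upstream (chr2:113679379-113680102), with a fold of 6.68, 4.98 and 5.75 and percentiles of 95.2, 97.8 and 98.6. An intragenic region at 33.4 kb (chr2:113635329-113636489) had a fold of 4.96, 4.98 and 4.46, at percentiles of 82.1, 97.7 and 92.9. A further intragenic region at 4.69 kb (chr2:113664137-113665035) was called in both Taf4 KO lists, at 81.0 and 75.9, and not in WT. The window also holds the promoters of the neighbouring genes Grem1 and Arhgap11a.

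Cpe, which encodes carboxypeptidase E (chr8:67071355-67171837, minus strand), had the strongest promoter peak of the 10 genes in each library. The -log10 q was 24.0, 25.8 and 24.6 in the WT, 1 week and 5 week lists, and the fold was 5.16, 5.75 and 4.50. These peaks stood at percentiles of 97.5, 99.8 and 98.0, and at 89.9, 98.9 and 87.8 among promoter peaks alone. Accessibility at the Cpe promoter, in other words, was near the top of every list, including that of 1 week.

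All 9 WT peaks of the Cpe locus were overlapped in both Taf4 KO lists, where 61.8% were at 1 week and 80.5% at 5 weeks over all loci. Against those 9 peaks, the gene with its flanks held 13 at 1 week and, by 5 weeks, 16. Of its regions without a WT peak, 3 were intragenic and called in both Taf4 KO lists, and 4 were intragenic and called at 5 weeks alone. A further 1 was flanking and called at 1 week alone. These patterns made up 14.3%, 25.8% and 20.3% of the regions over all loci. Among them, a region 4.79 kb into the gene (chr8:67166742-67167344) had a -log10 q of 7.01 at 1 week and 14.4 at 5 weeks, at percentiles of 89.8 and 91.5. Another at 80.5 kb (chr8:67091101-67091495) had a -log10 q of 8.21 and 2.95. Among the regions called in each list, the one at 63.5 kb (chr8:67108120-67108614) had a -log10 q of 13.5, 19.1 and 29.3 in the WT, 1 week and 5 week lists. Others ran the other way: at 77.4 kb (chr8:67094156-67094660) the -log10 q was 10.7, 2.98 and 4.79, and the percentile 82.2, 70.5 and 71.1. The intragenic peaks of Cpe therefore did not move together.

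Slc30a8 (chr15:52127108-52167353, plus strand) had the largest fall in promoter rank at 1 week, by the strongest peak of the promoter window, among the 9 genes called in both lists. Its narrow promoter peak, with a width of 393, 510 and 514 bp in the WT, 1 week and 5 week lists, had a fold of 5.57, 2.83 and 4.39. The -log10 q was 14.2, 3.47 and 16.8, and the percentile 88.9, 75.6 and 93.7. The shift was -13.2 points at 1 week and 4.87 at 5 weeks, and it did not reach the 20 points used for a call. Among promoter peaks of all genes it stood at 61.8, 25.6 and 67.1. With lists cut to equal number the 1 week percentile was 39.9, against 88.9 in WT and 84.4 at 5 weeks. The median 1 week shift of all genes in that setting was -7.78 points. Once a -log10 q of 5 was required no peak was left at this promoter at 1 week, where 33.5% of all genes had one, against 48.6% in WT. Loss of promoter peaks at 1 week was uneven over the genome by base composition: among genes called in WT, 2.84% lost the call where the surrounding 1 Mb was poorest in GC, the group to which Slc30a8 belongs, and 30.7% where it was richest. The median rank shift at 1 week in the poorest group was 6.23 points. The 250 bases upstream of the Slc30a8 start hold 0 CpG dinucleotides.

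Outside the Slc30a8 promoter the strongest regions differed from one another in course. An intragenic region at 20.6 kb (chr15:52147175-52148325) had a -log10 q of 24.3, 17.4 and 21.7 and a fold of 5.92, 4.72 and 4.33, at percentiles of 97.6, 98.8 and 96.8. A region 17.0 kb upstream (chr15:52109789-52110407) was weak in WT, at a -log10 q of 4.50, and strong in both Taf4 KO lists, at 16.0 and 25.6. Its fold was 3.71, 5.28 and 5.61 and its percentile 56.8, 98.4 and 98.2. At 1 week the fold of the promoter was thus below that in WT and the fold of this flanking region above it.

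**Figure D3:**
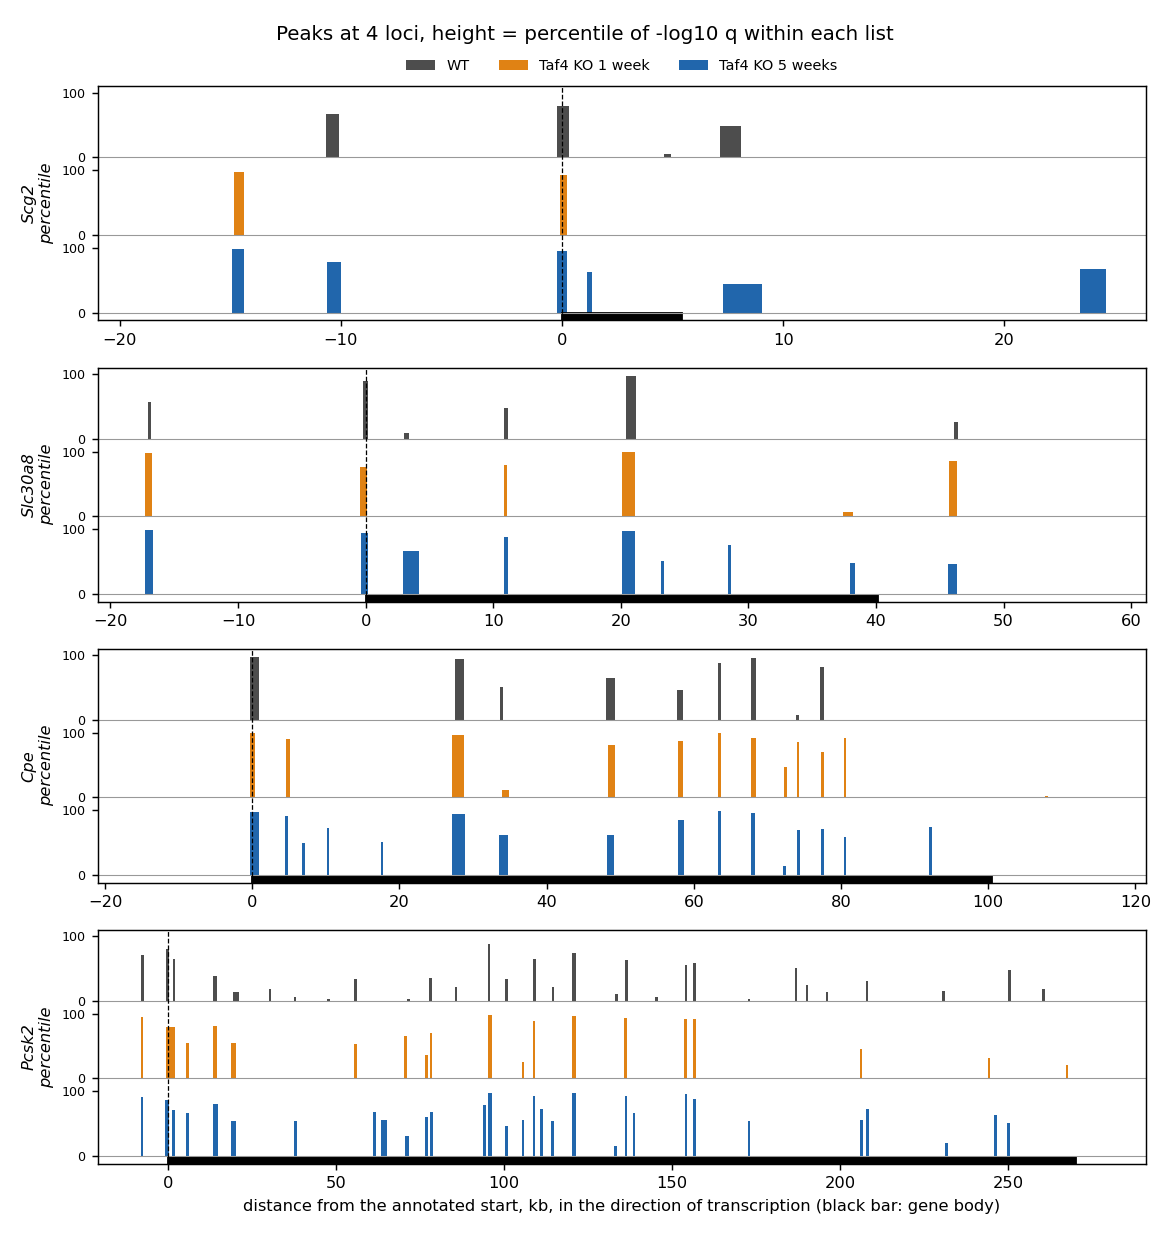
Peaks at the Scg2, Slc30a8, Cpe and Pcsk2 loci, with the distance from the annotated start in kb along the direction of transcription on the x axis and the percentile of the peak's -log10 q within its list as the height, for WT (grey), Taf4 KO 1 week (orange) and Taf4 KO 5 weeks (blue). The narrowest peaks are drawn at a minimum width, and the region 14.7 kb upstream of Scg2 appears in both Taf4 KO lists, at 97.6 and 98.2, with no WT peak.

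Among the granin genes Chga, Chgb and Scg2, the WT promoter peaks ranged from the 53.1 percentile (Chga) to the 83.9 (Chgb). Chga, which encodes chromogranin A (chr12:103793179-103803237, plus strand), had the weakest promoter peak of the set in WT and at 1 week, and the weakest but for Ptprn2 at 5 weeks. Its -log10 q was 4.04, 2.14 and 3.08, and its percentile 53.1, 52.4 and 60.2. Among promoter peaks of all genes it stood at 14.6, 10.6 and 11.1, in the lowest part of each list. A peak 3.50 kb upstream (chr12:103788992-103790367) was stronger than the promoter in every list, with a -log10 q of 11.7, 6.36 and 16.6. The local background at Chga was high, with a median of 15.3 reads over the peaks of the locus in WT against 4.57 over all WT peaks, so that a given pileup gave a lower fold there. The 250 bases before the RefSeq start (chr12:103792901-103793150, plus strand) are shown since this weakest of the CRE core promoters also holds several other matched motifs. Capitals mark the E-box, the GC box and the CRE core.

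Chga promoter: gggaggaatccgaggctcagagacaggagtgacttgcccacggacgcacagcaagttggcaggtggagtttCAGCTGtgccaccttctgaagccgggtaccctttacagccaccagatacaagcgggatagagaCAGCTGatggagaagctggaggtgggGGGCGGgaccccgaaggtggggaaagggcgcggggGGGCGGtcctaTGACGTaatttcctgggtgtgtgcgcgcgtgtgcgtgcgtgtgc

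Chgb, at the start described above, had a percentile of 83.9 in WT, 94.3 at 1 week for the peak over its RefSeq start, and 95.8 at 5 weeks. The fold of these peaks was 4.10, 4.03 and 4.21, nearly equal in the 3 libraries. Only 1 other WT peak lay at its locus, 4.05 kb upstream of the start, with a -log10 q of 2.56.

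Scg2, which encodes secretogranin II (chr1:79431244-79436665, minus strand), had a promoter peak with a -log10 q of 9.66 (WT), 8.82 (1 week) and 19.6 (5 weeks). Its percentile was 79.5, 93.1 and 95.7, and its standing among promoter peaks 40.3, 69.5 and 76.2. Its fold was 4.62, 4.04 and 4.88, so that its higher ranks in both Taf4 KO lists, by 13.6 and 16.2 points, went with a similar fold. At 1 week the locus kept the smallest share of its WT peaks among the 10 genes, but it had only 4. Of these 1 was overlapped at 1 week, the promoter peak, and 3 at 5 weeks. Over all loci 61.8% and 80.5% were. A WT peak 10.3 kb upstream (chr1:79446679-79447349), with a -log10 q of 6.07, had no peak at 1 week and one of 6.67 at 5 weeks. In its neighbourhood, 14.7 kb upstream (chr1:79451070-79451604), a region was called in both Taf4 KO lists and not in WT. Its -log10 q was 13.8 at 1 week and 25.3 at 5 weeks, and its fold 4.92 and 5.42, higher than that of the promoter. This was the strongest of the regions at the 10 loci called in both Taf4 KO lists and not in WT. The middle 300 bases of the 1 week peak (chr1:79451135-79451434, minus strand), which the 5 week peak covered as well, are printed since that region has no WT counterpart. None of the motifs searched was found in them.

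Scg2 upstream region: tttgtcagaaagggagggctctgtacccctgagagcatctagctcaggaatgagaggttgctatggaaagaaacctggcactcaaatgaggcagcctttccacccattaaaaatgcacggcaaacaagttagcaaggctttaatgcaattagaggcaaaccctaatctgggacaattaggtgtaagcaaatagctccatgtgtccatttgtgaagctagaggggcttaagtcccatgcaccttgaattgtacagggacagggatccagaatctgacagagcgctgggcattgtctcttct

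Ptprn and Ptprn2 encode transmembrane proteins of the granule with an inactive phosphatase domain, both known as autoantigens in type 1 diabetes. The Ptprn promoter peak (gene at chr1:75243616-75260783, minus strand) had a -log10 q of 7.92, 5.34 and 8.24, at percentiles of 74.2, 85.3 and 81.7. It covered both RefSeq starts of the gene, 437 bp apart, in each list. An intragenic region at 12.5 kb (chr1:75248016-75248605) had a -log10 q of 12.1, 6.36 and 24.4 and percentiles of 85.2, 88.3 and 97.9. All 9 WT peaks of the Ptprn locus were overlapped at 5 weeks, and 6 at 1 week, against 80.5% and 61.8% over all loci. The surrounding 1 Mb has a GC content of 48.1%, in the richest group, and the window also holds the promoters of Dnajb2 and Resp18.

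Ptprn2, whose gene spans 792 kb (chr12:117724193-118516640, plus strand), gave the only shift of more than 20 points. The call needs care, since the peaks compared were different ones. In WT the promoter peak, from 117724130 to 117725326, covered the start, with a -log10 q of 5.08 at the 61.0 percentile. At 1 week the strongest peak in the window, from 117721646 to 117723369, with a -log10 q of 9.54 at the 94.1 percentile, reached only the upstream edge of the window and did not cover the start. The peak next to the start at 1 week, from 117724229 to 117725223, had a -log10 q of 1.29 at the 7.47 percentile. At 5 weeks the peak over the start had a -log10 q of 2.82 at the 57.3 percentile. The peak at the Ptprn2 start therefore ranked below WT at 1 week, and the upward shift of 33.1 points belonged to an upstream region, whose WT and 5 week peaks, outside the window, stood at 40.6 and 79.6.

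With its flanks Ptprn2 held 67 peaks in the WT list, 67 at 1 week and 106 at 5 weeks. Of 124 joined regions 40 were called in all 3 lists, 20 in both Taf4 KO lists and not in WT, and 11 in WT alone. Over all loci these patterns made up 24.1%, 14.3% and 7.28% of the regions. The strongest region lay 622 kb into the gene (chr12:118345080-118346390), with a -log10 q of 18.8, 17.4 and 23.5 in the WT, 1 week and 5 week lists. Ptprn2 alone thus held about as many peaks as the other 9 loci together, which had 74, 63 and 90, and totals are given with and without it.

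Over the 10 loci, the number of peaks was 0.922 times the WT number at 1 week (130 against 141, exact 95% interval 0.721 to 1.18, counting error only) and 1.39 times at 5 weeks (196 against 141, 1.11 to 1.74). Without Ptprn2 these ratios were 0.851 (63 against 74) and 1.22 (90 against 74). Over all protein-coding loci they were 1.50 and 1.81. The covered length was 89.6 kb in WT, 93.3 kb at 1 week and 142 kb at 5 weeks. All 10 genes had a WT promoter peak, and over the loci of all genes with one the ratios were 1.17 and 1.52, within the intervals of the 10 loci. By GC content, the 5 members of the poorest group (Pcsk1, Cpe, Slc30a8, Scg2 and Scg5) had 27, 31 and 40 peaks, 1.15 and 1.48 times WT, where loci of that group with a WT promoter peak had 2.83 and 2.37 times. In the next group Pcsk2, Chgb and Ptprn2 had 99, 90 and 140 peaks, 0.909 and 1.41 times WT, against 1.16 and 1.57.

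The comparison turned when weak peaks were left out. Once a -log10 q of 3 was required, the ratio at the 10 loci was 1.26 at 1 week and 1.85 at 5 weeks, against 1.06 and 1.61 over all loci. From a -log10 q of 5 it was 1.28 and 1.74, against 0.915 and 1.70. Among strong peaks the 1 week ratio was thus higher at these loci than over all loci, the reverse of the order among all peaks. The difference was not tested. At these cuts no ratio was computed for loci with a WT promoter peak or by GC group. The order therefore cannot be assigned to the 10 genes. When each list was cut to the length of the shortest, the ratios were 0.645 and 0.83, against 0.792 and 0.958. Scaled to the background depth of WT, they were 0.621 and 0.629, against 0.724 and 0.793.

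Of the 141 WT peaks at the 10 loci, 86 were overlapped at 1 week, or 61.0% (Wilson 95% interval 52.8 to 68.7), and 118 at 5 weeks, or 83.7% (76.7 to 88.9). Over all loci the shares were 61.8% and 80.5%, within these intervals. From a -log10 q of 3 the shares were 80.0% and 90.8% at the 10 loci, against 70.2% and 93.2%. With lists cut to equal length they were 52.5% and 60.3%, against 54.7% and 71.6%. Joined regions numbered 231. Of these 84 were called in all 3 lists, 36.4% against 24.1% over all loci, 22 in WT alone, 9.52% against 7.28%, and 31 in both Taf4 KO lists alone, 13.4% against 14.3%. Regions called at 1 week alone made up 5.63%, against 20.3% over all loci. The all-loci shares include loci without a WT promoter peak, which all 10 genes had. Over loci with one, the 1 week ratio of peak numbers was 1.17, against 1.50 over all loci. Region shares were not computed for that background, so these differences cannot be assigned to the 10 genes. All 22 WT-only regions were intragenic, and 20 of them lay in Pcsk2 and Ptprn2. Of all 231 regions, 191 were intragenic, and Pcsk2 and Ptprn2 held 43 and 124. Among intragenic and flanking regions called in WT and in a Taf4 KO list, the median percentile shift was 28.0 points at 1 week over 70 regions and 23.0 at 5 weeks over 101, against the 22.1 and 23.8 of all loci given above.

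**Figure D4:**
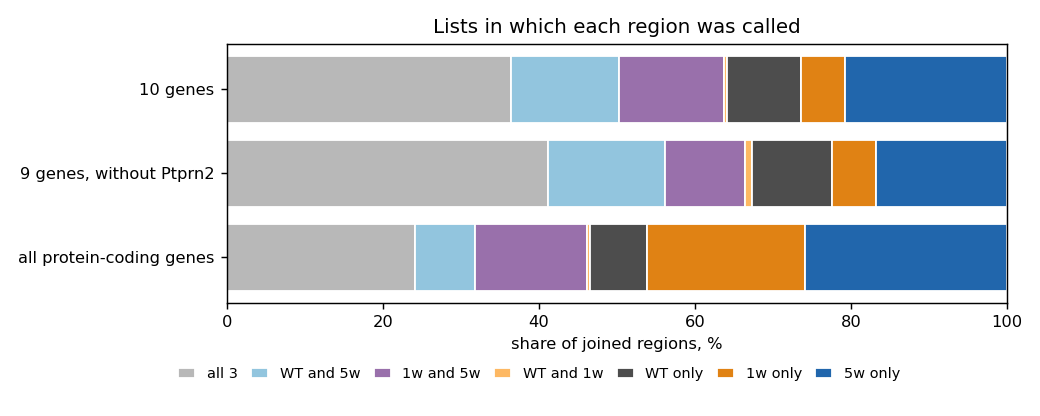
Share of joined regions, in percent, by the lists in which they were called (1w and 5w, Taf4 KO at 1 and 5 weeks), for the 10 genes (231 regions), for 9 genes without Ptprn2 (107) and for all protein-coding loci (119930). Regions called in all 3 lists made up 36.4% at the 10 genes and 24.1% over all loci, and those called at 1 week alone 5.63% and 20.3%. All loci include those without a WT promoter peak, which all 10 genes had.

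In a wider list of 24 genes of prohormone processing and granule formation, a promoter peak was found for 23 in WT, for 19 at 1 week and for 23 at 5 weeks. Over all genes the shares were 59.0%, 55.9% and 65.6%. Of the 23 WT calls 4 were missing at 1 week, where over all genes 14.5% were. The genes whose call differed were Pcsk7, a convertase of the secretory pathway, Vgf, a granin-like prohormone, Atp6v0a1, a subunit of the proton pump that acidifies granules, and Slc18a2, the vesicular monoamine transporter. Each was called in WT, not at 1 week, and again at 5 weeks. Of these, 2 lay in the GC-richest group, Pcsk7 in the next and Slc18a2 in the middle group. Hid1 and Pick1, also in the richest group, kept a call at 1 week. Qpct, which encodes glutaminyl cyclase, had no promoter peak in any list. Among genes called in each list, the peak of Pick1, a protein of granule budding, fell from the 82.3 percentile in WT to 19.3 at 1 week and stood at 83.8 at 5 weeks, and that of Ccdc186 fell from 95.5 to 46.1 and stood near its WT rank at 5 weeks, both named after their values were seen.

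The insulin genes, which encode the cargo, had promoter peaks in each list. The Ins1 peak stood at percentiles of 98.0, 97.1 and 99.9 in the WT, 1 week and 5 week lists. The Ins2 peak had a -log10 q of 5.48, 3.05 and 8.59, at 63.5, 71.4 and 82.4. The Ins1 peak thus ranked with that of Cpe, near the top of every list, and the Ins2 peak with those of Chga and Ptprn2 in WT.

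Promoter calls at cell type markers were set against the tissue label and read beside the shares of all genes, 59.0%, 55.9% and 65.6%. Of 8 beta cell markers 8 were called in WT and 7 in either Taf4 KO list, where Slc2a2, the glucose transporter of beta cells, was missing. The Slc2a2 call in WT was itself weak (-log10 q 2.15, percentile 26.6), so it gives little ground to speak of a lost peak. Of 5 alpha cell markers 4, 4 and 5 were called, and Gcg, which encodes glucagon, was not called in WT. Of the 3 delta cell markers 1, 2 and 3 were called, and Sst, which encodes somatostatin, and Hhex were not called in WT. The Sst peaks at 1 and 5 weeks were near the floor, with a -log10 q of 1.41 and 1.33, whereas those of Gcg reached 4.96 and 7.14. Acinar markers were called at 0 of 5 in each list and duct markers at 1 of 3. Endothelial markers were called at 2, 2 and 4 of 5, stellate cell and fibroblast markers at 0, 0 and 3 of 4, and immune markers at 0, 1 and 0 of 4. Some of these calls were near the floor as well: Kdr (1.37) and Egfl7 (1.41) in WT, Ptprc (1.26) at 1 week and Pdgfrb (1.40) at 5 weeks, all as -log10 q. Peaks of the delta, endothelial and stellate lists were thus more numerous at 5 weeks, the deepest list. Their part in the 5 week values at the 10 loci was not tested.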

How the data were processed

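The members, gene lists, markers and motifs were chosen with earlier results of these data known. Reads had been mapped by the authors to mm9 with Bowtie 1.0.0, keeping alignments to a unique place, and broad peaks called per library with MACS2 2.1.1. No control library, duplicate removal or insertion-site shift was stated. The deposited lists hold, per peak, a fold over the local background (a ratio with a pseudocount of 1), a -log10 p and a -log10 q, each averaged over the peak, and a whole-number score that the authors' caller derived from the q and that was not used. Read totals are not given in such lists, so depth was described by the background recovered from fold and p. No test between groups was made, since each group was 1 library. Intervals cover counting error only.

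Peaks were set against NCBIM37 (the sequence of mm9) and GENCODE vM1 with Python 3.11.15, numpy 2.4.6, pandas 2.3.3 and scipy 1.17.1. Overlap counted from 1 bp. Of several promoter peaks the one with the highest q was used. Regions were named by a rule: the promoter peak, the strongest peak outside it in each list, and the strongest region found in, or missing from, 1 list. Other regions given were chosen after their values were seen. GC content was taken over 1 Mb around the start, in 5 groups of equal number of genes with a WT promoter peak. All genes of the wider list were matched, 2 of them (Hid1 and Ccdc186) by older symbols. Scripts were tested on simulated peak lists. Alternatives were a -log10 q minimum of 3 or 5, lists of equal number, scaling of each list to the WT background, other windows and flanks, and a reciprocal overlap of 50%. Added after the data were seen were the loci without Ptprn2, ranks among promoter peaks, RefSeq starts and the CRE core.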

Additional observations from a re-analysis of the deposited data

Results flagged for a closer look

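Several values moved in opposite directions at 1 and 5 weeks against WT. With 1 library per group these differences were not tested. The promoter rank of Slc30a8 shifted by -13.2 points at 1 week and 4.87 at 5 weeks, the widest such split apart from Ptprn2. For Ptprn2 the shifts were 33.1 and -3.66 points, where the 1 week value belongs to a peak upstream of the start. Pcsk2 shifted by -1.85 and 6.56 points and Chga by -0.712 and 7.15, in both cases with a 1 week value close to 0. The number of peaks at the 10 loci was 0.922 times WT at 1 week, with an interval that includes 1, and 1.39 times at 5 weeks.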

How the results depend on the processing

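In every setting 8 to 10 of the 10 genes had a promoter call per list, except 6 at 1 week once a -log10 q of 5 was required. Over all genes the 1 week share of 55.9% became 44.9% and 33.5% from a -log10 q of 3 and 5. It was 48.8% with lists cut to equal length and 47.1% on the WT depth scale. Of 60 alternative values 38 stayed within 1.5 times (counts) or the limits of the reported value. The ratio of peaks at the 10 loci at 1 week, 0.922, became 1.26 and 1.28 once a -log10 q of 3 and 5 was required, 0.645 with lists cut to equal length and 0.621 on the WT depth scale. At 5 weeks, 1.39 became 1.85, 1.74, 0.83 and 0.629. The share of WT peaks overlapped at 1 week was 80.0%, 72.1%, 52.5% and 51.4% under those 4 choices and 42.6% at a reciprocal overlap of 50%. Over all loci it was 70.2%, 62.2%, 54.7% and 53.1% under the 4 choices. At 5 weeks the share at the 10 loci was 90.8% from a -log10 q of 3 and 83.7% from 5, against 93.2% and 94.4% over all loci. It was 60.3% at equal length and 52.9% on the WT depth scale, against 71.6% and 65.5%. For the reciprocal overlap it was 58.2% at the 10 loci. The median promoter rank shift was -1.25 at 1 week from a -log10 q of 3 and -4.24 at equal length. At 5 weeks it was -0.729 and -12.2, and -1.39 among promoter peaks alone. The cause of these changes was not tested. Depth differed between the lists, so ratios of counts and ranks hold for the lists as called. No paired analysis was possible because each group held 1 library.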
